A study of Mus musculus with 8 samples.

Results

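The nuclear-encoded subunits of the oxidative phosphorylation machinery were followed complex by complex in the sciatic nerve of mice. Members were taken by gene name, as the Ndufa, Ndufb, Ndufc, Ndufs and Ndufv genes of complex I, Sdha to Sdhd of complex II, the Uqcr genes of complex III, the Cox4 to Cox8 genes of complex IV and the Atp5 genes of complex V. This gave 83 of the 34821 gene names on the array, with 36 in complex I, 4 in complex II, 8 in complex III, 18 in complex IV and 17 in complex V. Each gene was represented by 1 probe, the brightest in the Cy3 dye. A gene was compared where its probe stood well above background in the nerve channel on 4 or more arrays, which held for 80 of the 83. Cox7b2, Cox8c and Atp5s fell short of that.

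The arrays compared nerves of 4 male wild-type mice with nerves of 4 male SOD1G93A mice, all aged 60 days and described as biological replicates. SOD1G93A mice carry a human SOD1 transgene with an amyotrophic lateral sclerosis mutation, expressed under the human gene's own promoter in many cell types, so an effect in nerve cannot be assigned to 1 cell type. Nerve RNA was labelled with Cy3 and hybridised with a Cy5-labelled common pool of heart, liver and kidney RNA from newborn wild-type and SOD1G93A mice. Values are log2 ratios of nerve over this pool, so 0 means equal signal, 1 a 2-fold higher and -1 a 2-fold lower signal in nerve.

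The 5 complexes sit in the inner mitochondrial membrane. Complexes I and II feed electrons from NADH and succinate to ubiquinone, complex III passes them to cytochrome c, complex IV hands them to oxygen, and complex V uses the resulting proton gradient to make ATP. Most subunits are encoded in the nucleus, and a small core of complexes I, III, IV and V is encoded in mitochondrial DNA. Several complex IV subunits exist as a broadly expressed form and a form known from heart and skeletal muscle. In peripheral nerve, axons and Schwann cells both hold mitochondria, and a whole-nerve measurement mixes them with connective, vascular and immune cells. In such bulk RNA, fewer cells of a type and less RNA per cell cannot be told apart.

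Of the 59305 non-control spots per array, 35.5% to 41.7% were well above background in Cy3, and 0 were saturated. The tissue label was checked on myelin, where Mbp, a protein of compact myelin, gave 3.61 ± 0.22 (SD, n = 4) in wild-type nerve. The Sod1 probe averaged 0.13 ± 0.20 in the wild-type and -0.04 ± 0.09 in the transgenic group (SD, n = 4 each), and its binding to the human transcript was not analysed here. Markers of skeletal muscle were unevenly spread, with 14 of 18 listed genes measured and Myh1, Myh2, Mylpf and Myoz1 not kept. Their mean log2 ratio, set against the wild-type mean, was 1.69 and 0.88 in wild-type replicates 1 and 2, -1.38 and -1.19 in wild-type replicates 3 and 4, and -1.52 to -1.28 in the SOD1G93A nerves. All arrays lay on 1 slide, where the first position number was the same within a genotype, so position and genotype cannot be told apart.

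Sequence is shown first for 3 broad-form and 2 muscle-type subunits of complex IV, the complex with the widest range of ratios in nerve. The stretches are the 250 bases before the transcription start given by RefSeq on GRCm38.p6, written along the gene's own strand. They run from chr5:115348959-115349208 on the minus strand for Cox6a1, chr19:7217617-7217866 on the minus strand for Cox8a, chr9:79759854-79760103 on the minus strand for Cox7a2, chr7:30183921-30184170 on the plus strand for Cox7a1 and chr7:140900447-140900696 on the minus strand for Cox8b. Capitals mark matches, on either strand, to any of 7 motifs. For the nuclear respiratory factor NRF1 the letters were GCGCANGCG, for ETS-type factors CCGGAAG, and for YY1, a zinc-finger factor, AAGATGGC. For the oestrogen-related receptors they were TCAAGGTCA, for the muscle-type E-box CAGCTG, for the TATA box TATAAA, and the CCAAT box was searched by those letters.
Cox6a1: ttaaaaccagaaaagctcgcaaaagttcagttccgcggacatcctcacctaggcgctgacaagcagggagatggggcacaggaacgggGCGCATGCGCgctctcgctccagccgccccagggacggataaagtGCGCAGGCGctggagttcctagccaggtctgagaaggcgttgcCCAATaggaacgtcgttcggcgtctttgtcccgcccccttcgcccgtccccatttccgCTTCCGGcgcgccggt
Cox8a: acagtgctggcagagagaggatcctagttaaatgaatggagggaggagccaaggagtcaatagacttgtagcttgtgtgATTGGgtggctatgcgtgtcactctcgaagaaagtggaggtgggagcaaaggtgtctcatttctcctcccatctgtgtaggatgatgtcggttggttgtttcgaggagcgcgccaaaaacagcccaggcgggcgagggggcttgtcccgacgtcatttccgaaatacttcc
Cox7a2: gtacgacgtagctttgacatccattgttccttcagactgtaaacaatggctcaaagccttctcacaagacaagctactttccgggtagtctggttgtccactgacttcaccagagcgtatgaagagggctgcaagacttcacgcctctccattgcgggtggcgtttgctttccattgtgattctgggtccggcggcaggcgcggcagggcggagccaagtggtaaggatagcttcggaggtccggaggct
Cox7a1: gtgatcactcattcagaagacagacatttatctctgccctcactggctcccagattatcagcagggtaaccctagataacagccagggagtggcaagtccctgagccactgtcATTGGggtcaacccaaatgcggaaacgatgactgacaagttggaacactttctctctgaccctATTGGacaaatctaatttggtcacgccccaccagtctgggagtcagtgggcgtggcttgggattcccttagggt
Cox8b: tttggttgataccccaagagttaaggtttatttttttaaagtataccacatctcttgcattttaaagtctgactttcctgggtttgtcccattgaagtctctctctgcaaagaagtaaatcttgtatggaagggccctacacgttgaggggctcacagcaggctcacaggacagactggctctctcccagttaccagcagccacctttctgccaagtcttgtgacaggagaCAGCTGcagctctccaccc

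Cox6a1 held 3 NRF1 matches, of which 2 overlap, 1 ETS match and 1 CCAAT match, and its stretch had 26 CpG dinucleotides. Cox8a held 1 CCAAT match and 11 CpG dinucleotides. Cox7a2, the broad partner of Cox7a1, held 0 matches and 14 CpG dinucleotides. Cox7a1, of the muscle type, held 2 CCAAT matches and 4 CpG dinucleotides. Cox8b, also of the muscle type, held 1 E-box match and 1 CpG dinucleotide. Of the 83 members, 69 had such a window in the table. The NRF1 letters occurred in 14 of these 69 (20.3%), against 5.86% of all 27025 genes with a window, and the ETS letters in 12 (17.4%), against 7.83%. Both occurred together in Cox6a1, Atp5h, Atp5l and Sdhd. The other shares were 2.9% against 1.83% for the YY1 letters, 1.4% against 0.42% for TCAAGGTCA, 8.7% against 14.7% for the E-box, 8.7% against 14.3% for the TATA box and 44.9% against 37.5% for CCAAT. A gene was counted once when any of its windows held the letters. A match describes the letters in this window only and was not tied to binding.

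In wild-type nerve, subunits of every complex had mostly lower signal than in the neonatal organ pool. The log2 ratio was below 0 in 72 of the 80 genes, while 45.4% of the 15343 genes tested lay below 0. The ratio was under -1 in 25 of the 80 and over 1 in 0, against 8.75% and 14.1% of all genes. The median over the 80 was -0.82, and over all genes 0.08. By complex the medians were -0.60 in complex I, -0.51 in complex II, -1.06 in complex III, -1.01 in complex IV and -0.90 in complex V. With 1 reference pool and no dye swap, these ratios describe nerve against that pool and carry no test. Centring each array on its median in place of the loess step gave 46 genes under -1, with a median of -1.04 for the members and 0.14 for all genes.

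**Figure D1:**
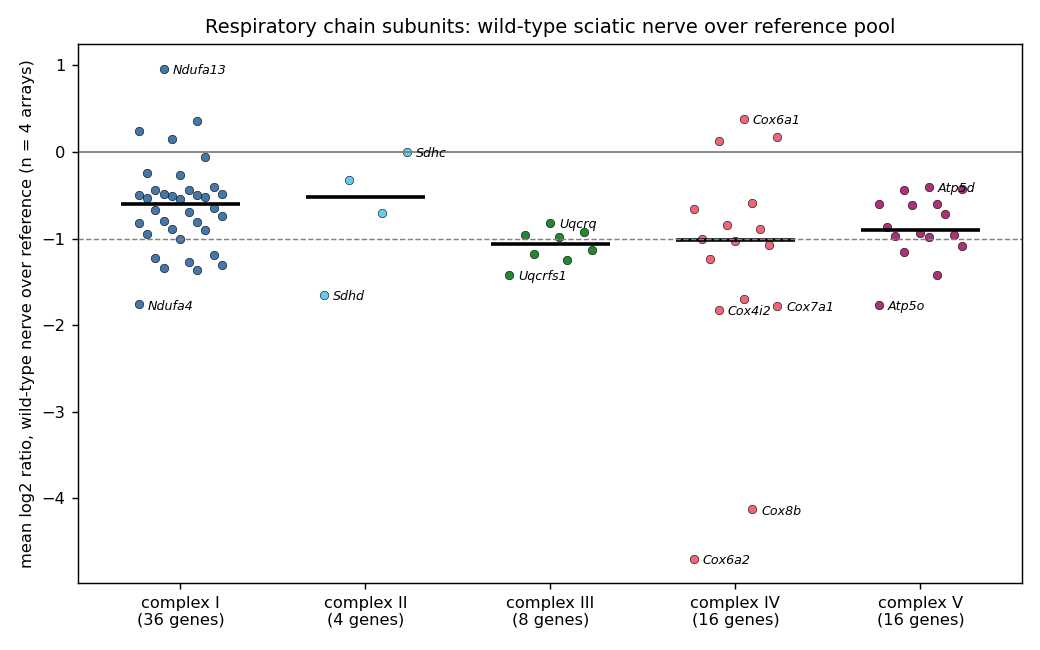
Each point is 1 subunit gene, placed by complex, with its mean log2 ratio of wild-type nerve over the reference pool (n = 4 arrays) on the vertical axis; black bars are medians of the complex, the solid line is 0 and the dashed line -1. Most points lie between 0 and -2, with Ndufa13 highest at 0.96 and Cox6a2 and Cox8b far below the rest at -4.70 and -4.13.

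Complex I, the NADH dehydrogenase, gave ratios from -1.76 to 0.96, with 32 of 36 genes below 0 and 7 under -1. Ndufa13, an accessory subunit also known as GRIM-19, was the highest member of any complex. Its probe, at chromosome 8, 72418102 to 72418161 on mm9, read 0.71, 0.97, 1.09 and 1.09 in the 4 wild-type nerves and 0.98, 0.98, 1.04 and 1.03 in the 4 SOD1G93A nerves. The 4 SOD1G93A values lay inside the wild-type range. The lowest was Ndufa4, at -1.76 ± 0.05 (SD, n = 4). It is counted here by its name, although its protein is now placed with complex IV. Ndufs1, the large iron-sulphur subunit of the electron-input arm, read -1.27, -1.46, -1.32 and -1.41 in wild-type and -1.95, -1.45, -1.47 and -1.51 in SOD1G93A nerves. The groups overlapped, and SOD1G93A replicate 1 was the lowest of the 8 arrays. Ndufv1, which binds NADH and flavin, averaged -0.67 ± 0.08 in the wild-type and -0.76 ± 0.05 in the SOD1G93A group (SD, n = 4 each).

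In complex II, the succinate dehydrogenase shared with the citric acid cycle, the 4 subunits spread from near 0 to 3.14-fold below the pool. Sdhc, a membrane anchor, stood at 0.01 ± 0.06 (SD, n = 4) and Sdhd, the other anchor, at -1.65 ± 0.14 (SD, n = 4). Sdha, the flavoprotein, averaged -0.33 ± 0.15 (SD, n = 4), and Sdhb, the iron-sulphur subunit, -0.70 ± 0.11 (SD, n = 4). A dimmer kept probe gave -0.40 for Sdhc and -1.08 for Sdhb, so the order of the subunits holds only for the brightest probes.

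In complex III, 8 of 8 genes were below 0, within -1.42 to -0.82 by the brightest probe of each. Uqcrfs1, the Rieske iron-sulphur protein, was lowest of these 8 at -1.42 ± 0.09 (SD, n = 4). Cyc1, a complex III subunit outside the name rule, averaged -1.85 ± 0.18 (SD, n = 4). Uqcrq, a small accessory subunit, was highest at -0.82 ± 0.04 (SD, n = 4), although its dimmer kept probe gave -1.74, under every value used for the complex. The core proteins Uqcrc1 and Uqcrc2 averaged -0.98 ± 0.09 and -1.25 ± 0.09 (SD, n = 4 each).

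Complex IV, the cytochrome c oxidase, had the widest range. Its broad-form subunits Cox6a1 and Cox8a lay above 0, and the muscle-type partners lay far below. Cox6a1, probed at chromosome 5, 115795726 to 115795785 on mm9, read 0.30, 0.46, 0.43 and 0.34 in wild-type nerves. Its muscle-type partner Cox6a2, probed at chromosome 7, 135349160 to 135349219, read -4.10, -4.78, -5.01 and -4.91 in wild-type and -4.66, -4.54, -4.63 and -4.61 in SOD1G93A nerves. The wild-type mean of -4.70 ± 0.41 (SD, n = 4) is a 26-fold lower signal in nerve than in the pool. Wild-type replicate 1, the nerve with the highest muscle markers, had the highest Cox6a2 ratio. Wild-type replicate 2, with the next highest markers, read -4.78, below all 4 SOD1G93A nerves. The part of muscle RNA in the Cox6a2 values was not tested.

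Cox8a, the broad form of the smallest subunit, read 0.15, 0.26, 0.22 and 0.07 in wild-type nerves. Cox8b, its muscle-type partner, probed at chromosome 7, 148084852 to 148084911 on mm9, read -3.20, -3.79, -4.66 and -4.86 in wild-type and -4.53, -4.13, -4.15 and -4.69 in SOD1G93A nerves. Wild-type replicates 1 and 2 were the highest of the 8 arrays, as they were for the skeletal muscle markers, and the part of muscle RNA in the Cox8b values was not tested. The mean in wild-type nerve, -4.13 ± 0.77 (SD, n = 4), is a 17.5-fold lower signal than in the pool. The pool contains heart, and 11 of 11 measured slow and cardiac muscle markers were also lower in nerve, with wild-type ratios from -5.65 to -3.07. The part of heart RNA in the low Cox6a2 and Cox8b ratios was not tested.

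Cox7a1 and Cox7a2, the muscle and broad forms of subunit VIIa, stood closer together. Cox7a1 read -2.16, -1.72, -1.58 and -1.65 in wild-type nerves, lowest in replicate 1, where the muscle markers were highest. Cox7a2 read -1.12, -1.07, -0.89 and -0.93 there, and Cox7a1 minus Cox7a2 ran from -1.05 to -0.65 over the wild-type arrays. The same difference was -5.44 to -4.40 for Cox6a2 and Cox6a1, and -4.92 to -3.35 for Cox8b and Cox8a. Cox4i2, the subunit IV form known from lung and from low oxygen, averaged -1.82 ± 0.21 and its broad partner Cox4i1 -0.59 ± 0.12 (SD, n = 4 each). Cox6b1 and Cox6b2, the latter known as a testis form, averaged -0.89 and -0.84 with SDs of 0.15 and did not separate. The ratios are relative to the pool for each probe and do not rank the transcripts by abundance.

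**Figure D2:**
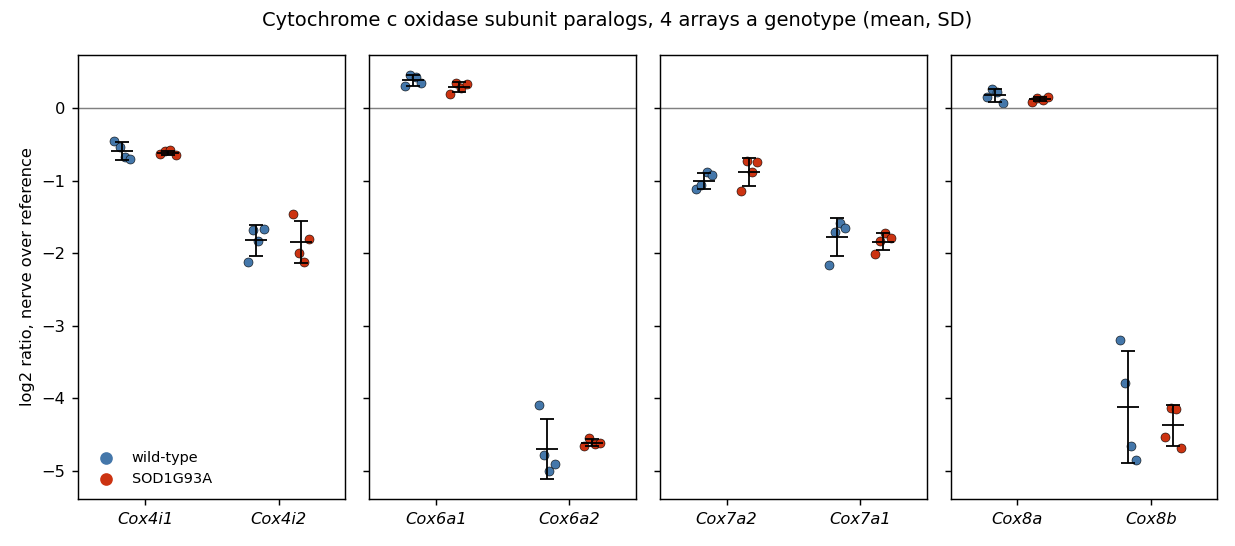
Log2 ratios of nerve over the reference pool on each of the 8 arrays for 4 pairs of complex IV paralogs (points, blue wild-type, red SOD1G93A), with the mean and SD of each group (n = 4). Cox6a2 and Cox8b lie below -3 on all 8 arrays, while Cox6a1 and Cox8a lie between 0 and 0.5.

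Other complex IV members were Cox7a2l, a factor that joins complexes III and IV, at 0.13 ± 0.04, and Cox7b, an accessory subunit, at -1.70 ± 0.08 (SD, n = 4 each). Cox7b2 and Cox8c, forms known mainly from testis, were not well above background in either dye on any of the 8 arrays. Without Cox6a2, Cox7a1 and Cox8b, the median of complex IV was -0.89 over 13 genes.

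Complex V, the ATP synthase, lay below 0 in 16 of 16 measured genes by their brightest probes, from -1.76 to -0.40. Atp5o, the subunit that joins the catalytic head to the stalk, was lowest at -1.76 ± 0.03 (SD, n = 4), and Atp5d, of the central stalk, highest at -0.40 ± 0.11 (SD, n = 4). The catalytic head subunits Atp5a1 and Atp5b averaged -0.96 ± 0.12 and -0.59 ± 0.08 (SD, n = 4 each). Atp5g1, Atp5g2 and Atp5g3 encode the same mature ring subunit behind different import signals. They averaged -0.97 ± 0.13, -0.60 ± 0.05 and -1.42 ± 0.14 (SD, n = 4 each), and Atp5g3 was below Atp5g2 on all 8 arrays. The dimmer kept probe of Atp5g1 gave 0.26, above 0, and a genotype difference of -0.24 against 0.07 for the probe used. Atp5s and Atp5sl are no part of the ATP synthase itself and carry the symbols Dmac2l and Dmac2 in the RefSeq table. Atp5s was well above background in Cy3 on 1 wild-type array and in Cy5 on 8 arrays. Its signal in the pool was at least 1.34-fold higher than in SOD1G93A nerve, taking for each array the higher of the dim probe's own signal and the lowest signal well above background.

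Between genotypes, 0 of the 80 subunit genes were called at an adjusted p under 0.05 (limma, Benjamini-Hochberg), where 25 of 15343 genes (0.163%) were called. The lowest adjusted p among members was 0.44. At an unadjusted p under 0.05 there was 1 member, Atp5o, against 11.4% of all genes. Under the alternatives of processing and of arrays, 0 members were called in each, and 0 to 5 passed the unadjusted threshold. The median difference, SOD1G93A minus wild-type, was -0.03 for the members and -0.02 for all genes. Of the 80 differences 30 were above 0, against 45.3% of all genes. The median was -0.04 in complex I, -0.17 in complex II, 0.03 in complex III, -0.02 in complex IV and -0.01 in complex V. Except in complex II, the signs of these medians changed under some alternatives. The 95% interval of the difference lay inside a 2-fold change either way in 79 of 80 members, Cox8b excepted, and inside 1.5-fold in 71. Over all 15343 genes it lay inside 2-fold in 14701 and inside 1.5-fold in 12563.

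**Figure D3:**
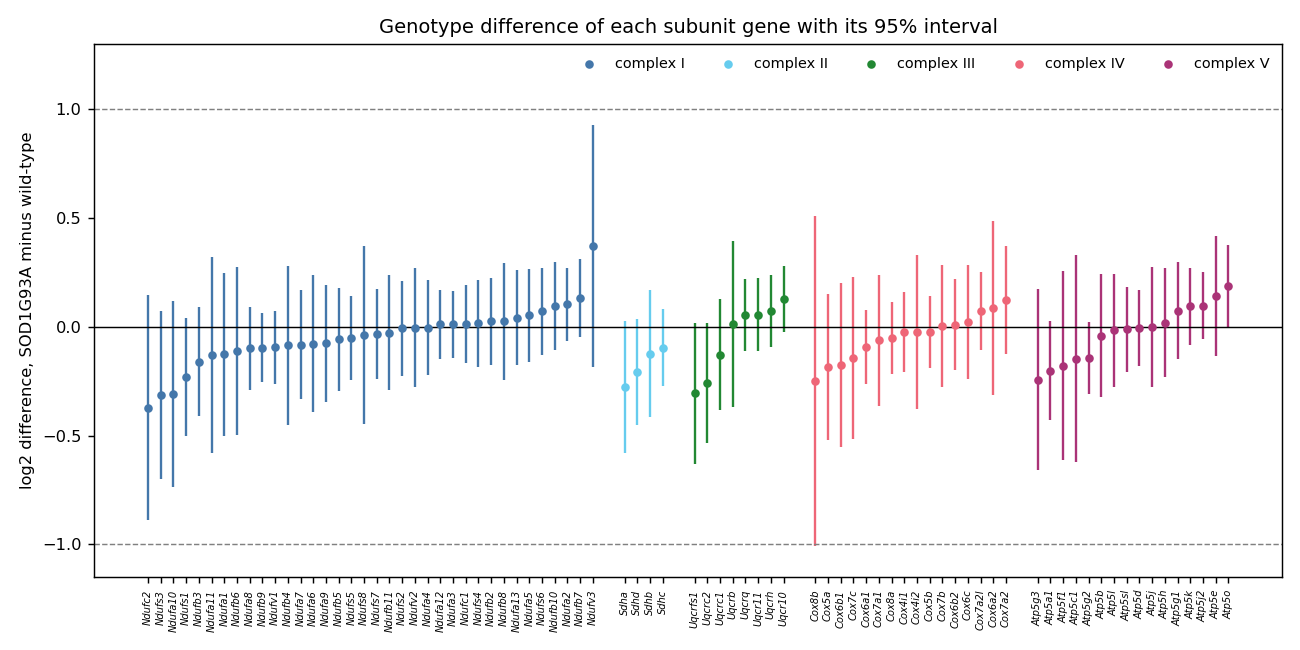
Difference in log2 ratio between SOD1G93A and wild-type nerve for each of the 80 subunit genes (points) with its 95% interval from limma (lines), ordered by size within each complex; dashed lines mark 2-fold changes. All intervals but that of Atp5o include 0, and only that of Cox8b reaches past a 2-fold change.

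The member with the smallest p was Atp5o, probed at chromosome 16, 91925542 to 91925601 on mm9. It read -1.76, -1.77, -1.73 and -1.79 in wild-type and -1.70, -1.44, -1.66 and -1.49 in SOD1G93A nerves. Every SOD1G93A value was above every wild-type value. The difference was 0.19 ± 0.08 (SE), with an unadjusted p of 0.049 and an adjusted p of 0.44 (limma). The 2 groups of arrays did not overlap in 8 of 80 members, against 8% of all genes. SOD1G93A was higher in 4, Ndufb7, Uqcr10, Atp5o and Atp5j2, and lower in 4, Ndufb9, Uqcrfs1, Atp5a1 and Atp5g2, against 3.67% and 4.33% of all genes. Ndufb7, Uqcr10, Atp5j2, Ndufb9 and Atp5g2 are named for this separation only, and their differences ran from -0.14 to 0.13. The Atp5j2 probe maps to another chromosome than the gene, so its identity is uncertain, and a dimmer probe on the gene's own chromosome gave -0.01.

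Among the catalytic and core subunits named here the differences were below 0, and none passed the adjusted threshold. Uqcrfs1 read -1.30, -1.45, -1.41 and -1.51 in wild-type and -2.19, -1.58, -1.56 and -1.57 in SOD1G93A nerves. SOD1G93A replicate 1 was lowest by far, and the other 3 lay just under the wild-type range. The difference was -0.31 ± 0.14 (SE; limma, adjusted p = 0.46), and -0.15 without SOD1G93A replicate 1. Uqcrc2, beside it in complex III, differed by -0.26 ± 0.12 (SE; limma, adjusted p = 0.46), and by -0.14 without that array.

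In complex II, the differences of all 4 subunits were below 0. Sdha read -0.12, -0.43, -0.31 and -0.45 in wild-type and -0.97, -0.44, -0.43 and -0.57 in SOD1G93A nerves, a difference of -0.28 ± 0.13 (SE; limma, adjusted p = 0.48) with overlapping groups. Sdhd differed by -0.21 ± 0.11 and Sdhb by -0.12 ± 0.13 (SE). Without SOD1G93A replicate 1 the values were -0.15 for Sdha, -0.13 for Sdhd and 0.01 for Sdhb. The dimmer kept probe of Sdhb gave a difference of -0.29 with all arrays. In complex V, Atp5a1 differed by -0.20 ± 0.10 (SE; limma, adjusted p = 0.49) and Atp5b by -0.04 ± 0.13 (SE). Without SOD1G93A replicate 1 they differed by -0.12 and 0.09. In complex I, Ndufs1 differed by -0.23 ± 0.12 (SE; limma, adjusted p = 0.51), or -0.11 without SOD1G93A replicate 1.

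Ndufs3, a core subunit of the complex I arm, had the next smallest p in that complex, through 1 array. It read -0.77, -0.68, -0.68 and 0.05 in wild-type and -0.96, -0.76, -0.81 and -0.79 in SOD1G93A nerves. The value of wild-type replicate 4 came from a spot that was not well above background in Cy3, and the probe was well above background in Cy5 on 7 of 8 arrays. The difference of -0.31 ± 0.17 (SE) had an adjusted p of 0.52 (limma). Ndufv3, a small flavoprotein subunit, is named for having the largest positive difference, 0.37 ± 0.25 (SE), and its other probe gave -0.17.

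In complex IV, Cox5a, a subunit on the matrix side, differed by -0.18 ± 0.15 (SE), or -0.02 without SOD1G93A replicate 1, and Cox6a1 by -0.09 ± 0.08 (SE). Cox8b differed by -0.25 ± 0.34, Cox6a2 by 0.09 ± 0.18 and Cox7a1 by -0.06 ± 0.13 (SE). Leaving out wild-type replicates 1 and 2, the arrays with high muscle markers, gave 0.38 for Cox8b, 0.34 for Cox6a2 and -0.22 for Cox7a1, with adjusted p-values of 0.69, 0.45 and 0.70 (limma refit on the other 6 arrays). The sign for Cox8b thus depended on those arrays. None of these differences was called.

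SOD1G93A replicate 1 stood apart for the subunits, and for other genes as well. It was the lowest of the 8 arrays in 52 of 80 members (65%), where the same array was lowest in 30.6% of all genes. It was the highest in 9 members (11.2%) and in 24.5% of all genes. Set against the wild-type mean, its mean log2 ratio was -0.30 over complex I, -0.46 over complex II, -0.25 over complex III, -0.21 over complex IV and -0.22 over complex V, and -0.05 over all genes. The other 7 arrays lay between -0.10 and 0.12 for every complex. Nearby gene lists were also low on SOD1G93A replicate 1, so the shift was not particular to the subunits. The citric acid cycle stood at -0.43, fatty acid oxidation at -0.27 and nucleotide and phosphate carriers at -0.27. Electron carriers and other subunits, a list that also holds subunits the name rule misses, such as Cyc1, stood at -0.285. Subunits encoded in mitochondrial DNA went the other way, at 0.25. The array also had the lowest median Cy3 intensity, 408 against 568 to 626, and its cell type markers were shifted both ways. Against the wild-type mean, those of myelinating Schwann cells stood at 0.49, kidney tubule at 0.40 and red blood cells at 0.32. Only 3 of 10 kidney tubule and 6 of 8 red blood cell markers were measured. Their signal was far below that of the pool, with median wild-type ratios of -2.33 and -3.59. Slow and cardiac muscle markers, also far below the pool, stood at 0.24 on this array. White adipocyte markers stood at -0.73 there, and macrophage markers at -0.43, where the other 3 SOD1G93A arrays lay between 0.37 and 0.77. Their part in the low subunit values was not tested.

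The shift on that array was not the same for all subunits. Against the median of the other 7 arrays it was -0.26 at the median, and from -1.11 for Ndufc2, an accessory subunit of the membrane arm, to 0.38 for Cox4i2. It was under -0.3 in 36 of 80 members and above 0 in 16, among them Atp5e, Ndufb7, Atp5k, Ndufa2 and Atp5g1. Ring subunit genes went separate ways, with Atp5g3 at -0.83, Atp5g2 at -0.19 and Atp5g1 at 0.20. Across the 80 probes, which share that array, the shift had a Spearman correlation of 0.30 with the probe's GC content, given as a description only. Without the array, 54 of 80 differences were above 0, in place of 30. The median difference was then 0.04 for the members and -0.006 for all genes. By complex, the number above 0 went from 13 to 28 of 36 in complex I, from 0 to 1 of 4 in complex II, stayed at 5 of 8 in complex III, and went from 6 to 8 of 16 in complex IV and from 6 to 12 of 16 in complex V. Still 0 members were called, with a lowest adjusted p of 0.18 (limma). In the same refit 180 of 15343 genes (1.17%) were called.

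**Figure D4:**
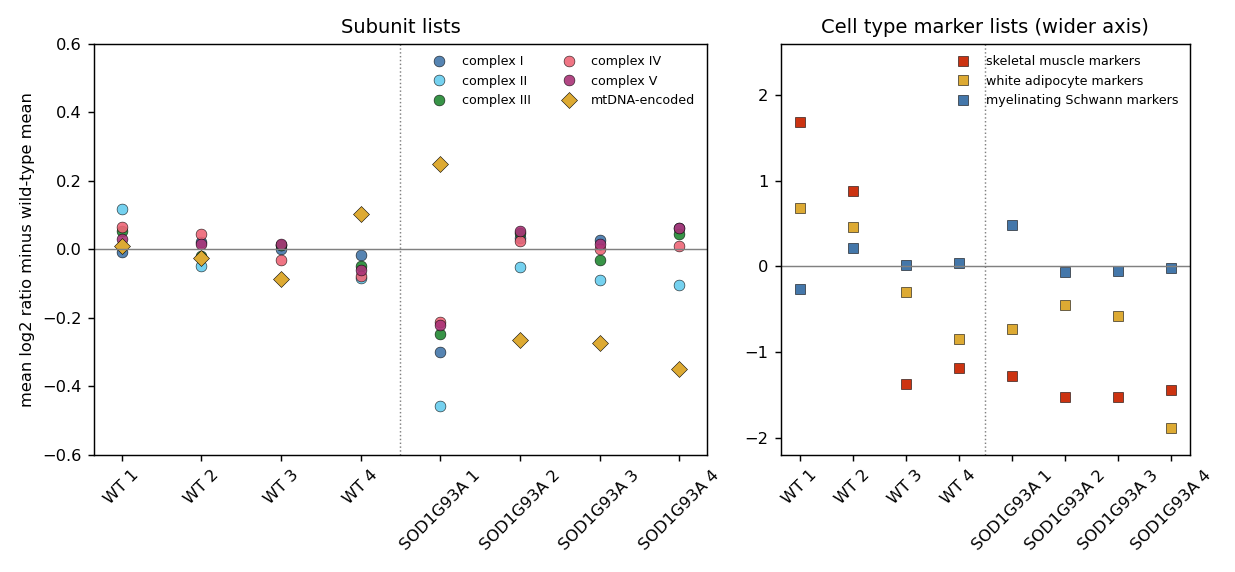
Mean log2 ratio of each list on each array, minus the wild-type mean, for the nuclear subunits of complexes I to V and the subunits encoded in mitochondrial DNA (left) and for 3 cell type marker lists on a wider axis (right). On SOD1G93A replicate 1 the 5 nuclear lists lie between -0.46 and -0.21 and the mitochondrial list at 0.25, and skeletal muscle markers are highest on wild-type replicates 1 and 2.

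The 13 subunits encoded in mitochondrial DNA, a list added after the files were seen, moved differently from the nuclear ones across arrays. All 13 were measured, with a median wild-type ratio of -0.25. Their mean, set against the wild-type mean, was 0.25 on SOD1G93A replicate 1 and -0.26, -0.27 and -0.35 on the other 3 SOD1G93A arrays. The wild-type arrays lay between -0.09 and 0.10. Of the 13, 11 had a difference below 0, 3 of them at an unadjusted p under 0.05, and 0 were called. Over all genes 45.3% of differences were above 0, 11.4% had an unadjusted p under 0.05 and 0.163% were called. ND1, a core membrane subunit of complex I, averaged -0.86 ± 0.13 in wild-type and -1.30 ± 0.09 in SOD1G93A nerves (SD, n = 4 each), with no overlap. The difference was -0.44 ± 0.09 (SE; limma, adjusted p = 0.11). ND2, a neighbouring core subunit, differed by -0.48 ± 0.18 and ND4 by -0.23 ± 0.09 (SE). Whether these probes read messenger RNA only or also its precursors was not tested.

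Genes that work around the 5 complexes were also free of calls in each of 10 lists. Over all genes, 0.163% were called, 45.3% of differences were above 0 and 11.4% had an unadjusted p under 0.05. In the citric acid cycle, 16 of 17 measured genes had a difference below 0 (median -0.19), with 4 at an unadjusted p under 0.05, among them Pdha1 of pyruvate dehydrogenase at -0.32 ± 0.11 (SE). The mean of that list against the wild-type mean was -0.43 on SOD1G93A replicate 1 and -0.15 to -0.09 on the other 3 SOD1G93A arrays. The wild-type arrays ran from -0.11 to 0.15, so the groups overlapped. In fatty acid oxidation, 13 of 14 were below 0 (median -0.27), with 4 at an unadjusted p under 0.05. Cpt1a, which admits long-chain fatty acids to mitochondria, differed by -0.46 ± 0.10 (SE; limma, adjusted p = 0.12). White adipocyte markers were lower in SOD1G93A nerves too, with 11 of 12 measured and means of -1.89 to -0.45 there against -0.85 to 0.68 in wild-type nerves, relative to the wild-type mean. Endothelial markers had differences below 0 in 9 of 10 (median -0.53, 7 at an unadjusted p under 0.05), and macrophage markers above 0 in 9 of 10 (median 0.44, 2 at that p). The part of these cells in the values of the metabolic lists was not tested. Assembly factors of complex I had a median difference of -0.01 (5 of 13 above 0) and those of complexes II to V -0.08 (5 of 18 above 0). Electron carriers and other subunits stood at -0.05 (6 of 16 above 0), with Etfa, which passes electrons from fatty acid oxidation to ubiquinone, at -0.39 ± 0.14 (SE). Medians were -0.11 for nucleotide and phosphate carriers, -0.09 for glycolysis, -0.01 for regulators of mitochondrial biogenesis, 0.00 for uncoupling proteins and -0.16 for genes of hypoxia-linked isoforms. At an unadjusted p under 0.05 there were 2 genes in glycolysis, 2 among assembly factors of complexes II to V, 2 among the hypoxia-linked genes, 1 electron carrier, 1 uncoupling protein, and 0 in the other 3 lists.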

How the data were processed

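RNA of 8 sciatic nerves was measured on 2-colour arrays. The deposited scanner files hold spot intensity per dye, with flags and other values without a scale. Agilent Feature Extraction is at 11.5.1.1 per the file headers and at 11.0.1.1 per the submitters' processing notes, which also list limma without saying what for. The log10 values of the deposited series table are Cy5 over Cy3 and identical to the scanner files' own (largest difference 0, with 30.7% of values exactly 0), and was used as an alternative with the sign turned.

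Mean intensities were corrected by normexp with the median local background (offset 50) and normalized by loess array by array, with weight 0 for control spots. Spots with outlier flags were left out (0.33% to 0.42% per array). Of 55681 probes, 19838 passed the filter (flagged well above background in Cy3 on 4 or more arrays), and the brightest probe per gene name gave 15343 genes. The members had 122 probes. A pseudogene probe and Ndufa4l2 were left out. Log2 ratios of Cy3 over Cy5 were compared by limma 3.58.1 (lmFit, eBayes; R 4.3.3; 2-sided, Benjamini-Hochberg over all genes, called under 0.05). The procedure was tested on simulated data, and an adjusted p given for a gene is from this limma fit unless arrays are said to be left out, when the same fit was repeated without them. Gene names and mm9 positions are those of the array files, and 2 used probes, of Atp5l and Atp5j2, map off their gene's chromosome.

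The members, lists and tests were chosen with earlier results of these data known. Single genes were named as paralogs, core subunits, the 2 smallest genotype p-values per complex, the highest and lowest ratio per complex, or probes not above background. Any other gene was named after its values were seen. Replicate numbers were checked for pairing, and correlations of same-numbered arrays were -0.16, 0.04, -0.11 and 0.10. These values showed no sign of pairing but cannot exclude it, and the main fit did not pair samples. Precision is limited by the number of arrays. Alternatives covered background correction, normalization, filters, probe choice, variance model, and arrays left out. One of the genes examined is not reported here.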

Additional observations from a re-analysis of the deposited data

Results flagged for a closer look

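Groups of 4 arrays were examined over the named members and the complex means. Of 76 such groups, 17 had 1 array separated from the other 3 by most of the group's range (Dixon's criterion). Chance gives about 1 in 20 for independent groups. These groups share the same arrays, and the complex means include named members, so the flags are not independent. SOD1G93A replicate 1 was the separated array in 13 of the 17, always as the lowest. Its log2 ratio was -1.95 for Ndufs1 (others -1.51 to -1.45), -1.22 for Sdhb (-0.73 to -0.68), -1.43 for Uqcrc1 (-1.02 to -0.98) and -2.19 for Uqcrfs1 (-1.58 to -1.56). It was -1.91 for Cox5a (-1.28 to -1.20) and -1.6 for Cox6b1 (-0.93 to -0.84). In the ATP synthase it was -1.39 for Atp5a1 (-1.09 to -1.07), -1.02 for Atp5b (-0.56 to -0.48) and -2.27 for Atp5g3 (-1.51 to -1.39). The means over complexes I, II, IV and V on that array were -0.927, -1.13, -1.51 and -1.09.

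Wild-type replicate 4 was apart for Ndufs3, at 0.053 (others -0.77 to -0.68), on a spot not well above background, and for the complex V mean, at -0.932 (others -0.85 to -0.84). Wild-type replicate 1 was apart for Atp5g1, at -1.17 (others -0.91 to -0.89). SOD1G93A replicate 2 was the highest for Ndufv1, at -0.69 (others -0.79 to -0.78).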

How the results depend on the processing

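The number of subunit genes called was 0 under all alternatives, and the lowest adjusted p among members lay between 0.13 and 1. Calls over the 15343 genes tested numbered 25 and varied widely. They were 7 with Agilent's processed signals or the series table, 1 with median centring, 16 with no filter on dim probes (of 34821 genes), 424 with array weights, 3 to 180 when 1 array was left out (180 without SOD1G93A replicate 1), 234 without both arrays numbered 1, and 7 without wild-type arrays 1 and 2. With the replicate number as a block, 1 gene was called.

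The median ratio of nerve over pool stayed below 0 for every complex. With no background correction it was -0.557 in complex I, -1.01 in III, -0.945 in IV, -0.839 in V and -0.785 over all members. With Agilent's processed signals or the series table it was -0.62 in I, -0.757 in V and -0.761 over all members. Median centring gave -0.826, -0.776, -1.33, -1.25 and -1.2 in complexes I to V and -1.04 over all members, with 46 members under -1 in place of 25. Averaging the probes of a gene gave -0.569, -0.61, -1.12 and -0.946 in I to IV. The stricter dim filter gave -0.651 in I, and no filter -0.946 in IV. Leaving out 1 wild-type array gave -0.647 to -0.598 in I and -0.926 to -0.827 in V. It was -0.639 in I without both arrays numbered 1. Without wild-type arrays 1 and 2 it was -0.637 in I and -0.888 over all members.

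Some genotype differences changed sign. With Cy3 alone they were 1.7 for Ndufs3, whose spot on wild-type replicate 4 was not well above background in that dye. Cy3 alone also gave 0.031 for Sdhb, 0.0263 for Cox6a1, 0.0663 for Cox7a1, 0.0227 for Cox8a and 0.0505 for Atp5b. Array weights gave 0.00135 for Sdhb, 0.0035 for Cox8b and 0.0763 for Atp5b. Without both arrays numbered 1 they were 0.0485 for Sdhb, 0.00843 for Uqcrc1, 0.113 for Cox8b and 0.111 for Atp5b. Without wild-type arrays 1 and 2, Cox8b was 0.383. With 1 array left out in turn, the differences ran from -0.173 to 0.00623 for Sdhb, -0.0157 to 0.287 for Cox6a2, -0.191 to 0.00354 for Cox7a1, -0.493 to 0.0599 for Cox8b and -0.0928 to 0.0868 for Atp5b. Median differences by complex changed sign too, except in complex II, where the median stayed below 0. With Cy3 alone they were 0.01 in complex I, 0.0245 in IV, 0.0194 in V and 0.0146 over all members. Array weights gave 0.0349, 0.0127, 0.0616 and 0.0249 in the same order. In complex III the median was -0.0143 without SOD1G93A replicate 2 and -0.0156 without replicate 4. The causes were not tested.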
